A study of Mus musculus with 35 samples.

Results

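Paclitaxel (PTX), a chemotherapy drug that binds and stabilises microtubules, was given to mice, and the response of the immune cells of the hind paw skin was set against that of the fibroblasts. The measure is a difference of differences: the log2 change of a gene between PTX and vehicle in immune cells, minus the same change in fibroblasts. Genes were taken as shared when both populations express them at rest, that is, with a mean of at least 5 CPM (counts scaled to a common library total) in the vehicle males of each population, at least 10 counts in at least 3 of the 4 libraries of each, and resting means within 8-fold of each other. The last condition sets most markers of one cell type aside, though 4 of 15 fibroblast, 5 of 9 pericyte and smooth muscle and 3 of 10 basal keratinocyte markers still met all 3. Of 22609 gene symbols 12369 were tested and 6654 were shared, and 434 of the shared genes belong to 19 lists of inflammation, stress and signalling genes. Those 434 of the 648 genes of these lists that were found are described here.

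The comparison uses 16 of the 35 libraries of the study, 4 in each of 4 groups of male C57 mice aged 8 to 16 weeks. Immune cells were sorted from wild-type mice by the leukocyte surface protein CD45. Fibroblasts were sorted by a tdTomato reporter switched on by an inducible Cre recombinase under the control of Col1a2, a collagen gene that fibroblasts transcribe, so the fibroblast mice carry a Cre and a reporter transgene that the immune cell mice do not. The treated animals received 2 intraperitoneal doses of PTX, 2 mg/kg each, a day apart, and skin of both hind paws was taken 6 days after the last one. Controls received vehicle. Vehicle females, 4 libraries of each population, are given as a further resting group that the comparison does not use. The labels do not say whether the 4 libraries of a group came from separate mice, so the p-values measure how far these libraries spread, and that spread may be of technical origin.

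Inflammatory and stress programmes are carried by genes that most cell types can use. Immediate early genes, such as Jun, Fos and Egr1, encode transcription factors that are switched on within minutes of a stimulus without new protein synthesis. NF-kB is a transcription factor held in the cytoplasm by inhibitors such as the protein of Nfkbia, and it drives cytokine genes as well as its own inhibitors. Heat shock chaperones refold damaged proteins, and small heat shock proteins such as those of Cryab and Hspb8 also bind the cytoskeleton. Cytokines reach skin fibroblasts and leukocytes through receptors that signal by NF-kB, JAK-STAT or MAP kinases.

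Sequencing depth was alike, with 13359088 to 20809036 counts in genes per library, but the number of genes detected was not. Immune vehicle libraries held 11029 to 12872 genes with at least 10 counts and immune PTX libraries 5992 to 8723, while fibroblast libraries held 7120 to 10142 with vehicle and 5427 to 9575 with PTX. The definition of shared requires detection in vehicle males, so the share of shared genes with under 10 counts is low there by construction and is set here against vehicle females, which the definition did not use. It was 3.32 to 4.57% in immune vehicle females and 14.6 to 36.5% in immune PTX males, against 2.09 to 6.78% and 7.86 to 40.7% in fibroblasts. The leukocyte gene Ptprc, which encodes CD45, had a mean of 531 CPM in immune vehicle and 559 CPM in immune PTX males, and 1.40 and 2.29 CPM in fibroblasts. RNA of other cell types moved with treatment in the immune libraries: 15 fibroblast markers summed to 6736 to 15255 CPM in vehicle males, 692 to 1902 CPM in PTX males and 551 to 1005 CPM in vehicle females, against 43072 to 94256 CPM in the male fibroblast libraries. Of these 15 markers 14 fell in immune cells, as did 4 of 9 endothelial, 4 of 9 pericyte and smooth muscle, 5 of 9 basal keratinocyte and 2 of 6 skeletal muscle markers tested. Over the shared genes, a set that leaves most of these markers out, 2.72% fell in immune cells and 0.165% rose. None of the pan-immune, macrophage or T cell markers changed, and 1 of 10 mast cell markers, the histidine decarboxylase gene Hdc, rose. The 10 mast cell markers summed to 1855 to 3365 CPM in immune vehicle males, 3454 to 8015 CPM in immune PTX males and 6901 to 8888 CPM in immune vehicle females, so the male groups do not overlap, and to under 46 CPM in every fibroblast library. In bulk RNA, fewer cells of a type and less RNA per cell cannot be told apart. Counts are as deposited, and all CPM values from here on are scaled by the TMM factors, those of females in a fit of 24 libraries.

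**Figure D1:**
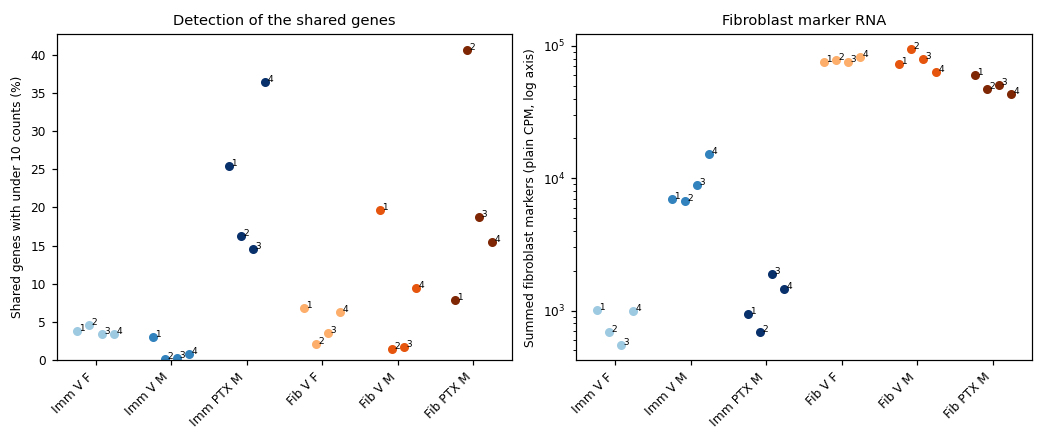
Each point is a library, in the 6 groups on the x axis (immune cells and fibroblasts, vehicle females, vehicle males and PTX males), with its replicate number. Left, the percent of the 6654 shared genes with under 10 counts; right, the summed CPM of 15 fibroblast markers without scaling factors, on a log axis. On the left, immune PTX males lie at 14.6 to 36.5%, above immune vehicle females at 3.32 to 4.57%, while the vehicle males are low because the genes were chosen for detection in them; on the right immune vehicle males lie at 6736 to 15255 CPM, above immune PTX males at 692 to 1902 CPM.

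The sequences upstream of 3 of the genes that rose in immune cells are shown first, with their matches to the motif patterns searched here. Jun holds no match to these patterns. Each is the 250 bases before the annotated start, from RefSeq on build GRCm38.p6, printed 5′ to 3′ along the gene's own strand with motif matches in capitals. The counts rest on another build, mm9, and are given by gene symbol alone. Capitals in Nfkbia mark the NF-kB motif, and in Nr4a1 the serum response motif (the longer match) and 4 matches of the CRE core, the heart of the site bound by CREB and related factors.

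Jun (chr4:95052223-95052472, minus strand): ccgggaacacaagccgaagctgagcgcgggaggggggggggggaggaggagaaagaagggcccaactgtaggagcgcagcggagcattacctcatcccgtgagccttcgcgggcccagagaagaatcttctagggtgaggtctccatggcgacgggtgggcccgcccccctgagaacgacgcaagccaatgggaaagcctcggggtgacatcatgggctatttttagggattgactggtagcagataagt

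Nr4a1 (chr15:101266596-101266845, plus strand): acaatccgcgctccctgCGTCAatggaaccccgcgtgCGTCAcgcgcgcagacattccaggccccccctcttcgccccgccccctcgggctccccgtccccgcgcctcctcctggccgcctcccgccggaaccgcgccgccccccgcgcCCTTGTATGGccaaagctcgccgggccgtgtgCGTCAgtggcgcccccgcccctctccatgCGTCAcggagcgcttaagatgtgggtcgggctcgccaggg

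Nfkbia (chr12:55492648-55492897, minus strand): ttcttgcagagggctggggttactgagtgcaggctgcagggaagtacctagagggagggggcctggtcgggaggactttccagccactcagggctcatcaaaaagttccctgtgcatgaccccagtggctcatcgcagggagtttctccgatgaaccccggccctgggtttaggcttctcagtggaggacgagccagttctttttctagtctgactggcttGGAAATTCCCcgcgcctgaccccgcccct

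The NF-kB, heat shock and serum response motifs, the CRE core TGACG and the AP-1 motif TGANTCA were searched on both strands, with N for any base, and a promoter could hold more than 1, at overlapping places. Of 10 list genes that rose in immune cells 8 had a promoter in the table. NF-kB was found in 2 of the 8, Cxcl10 and Nfkbia, against 0.98% of all 32851 promoters, and serum response in 2, Nr4a1 and Zfp36, against 12.8%. The CRE core was found in 3, Nr4a1, Ppp1r15a and Tnfaip3, against 17.8%, and AP-1 in 2, Cxcl10 and Tnfaip3, against 6.75%. The heat shock motif, found in 0.466% of all promoters in either frame, was in none of them. Of 8 list genes that fell in immune cells 4 had a promoter in the table, and 1, Osmr, held a match to the serum response pattern, CCGTCGCAGG. A match is a description of letters and not of binding. A stretch that only resembles a pattern was not counted, so the lack of a match does not exclude a site.

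Over the 6654 shared genes, the difference between the responses passed the test (edgeR's quasi-likelihood F-test, Benjamini-Hochberg adjusted p under 0.05 over the 12369 genes tested) for 129 genes, 1.94%: 11, or 0.165%, with the higher change in immune cells and 118, or 1.77%, with the lower one. Over all genes tested the shares were 0.105% higher, 2.7% lower and 2.81% in either direction. Of the 434 list genes, 1 was higher, Jun, which is 0.23%, and 8 were lower, which is 1.84% and near the share of all shared genes. The 8 were Osmr, Hspb8, Cryab, Rgs16, Tgfb3, Ptgis, Phlda3 and Tgfb1i1. By unadjusted p under 0.05, 39 list genes differed, 21 higher and 18 lower, against 8.03% of all shared genes.

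Taken alone, the response of immune cells passed for 10 list genes that rose, 2.3%, where 0.165% of the shared genes rose. The 10 were Jun, Nr4a1, Zfp36, Nfkbia, Tnfaip3, Cxcl10, Ccl7, Tnfsf9, Hspa1a and Ppp1r15a. The same 8 genes with the lower difference fell in immune cells, 1.84% of list genes against 2.72% of shared genes. In fibroblasts no list gene passed the edgeR test in either direction, with 18 higher and 14 lower at an unadjusted p under 0.05; DESeq2 called 5 higher and 7 lower, and limma's voom fit called 0. Over all shared genes 1 rose in fibroblasts, 0.015%, and 2 fell, 0.0301%. Passing in immune cells and not in fibroblasts does not show that the responses differ: of the 10 that rose, 1, Jun, differed between the populations by the test of the difference. The count of list genes that rose depends on settings: it was 3 with RLE size factors, 4 with plain CPM, 4 by DESeq2, 32 by voom and 2 with vehicle females as controls, and the 10 genes kept positive changes in all of these. It was 1 without both immune vehicle 4 and immune PTX 4, and 3 without immune vehicle 2. Of the 10 genes, RLE kept Jun, Hspa1a and Cxcl10, plain CPM Jun, Nr4a1, Tnfaip3 and Hspa1a, DESeq2 Hspa1a and Cxcl10, vehicle females Hspa1a, and the fit without both libraries numbered 4 Jun. Mast cell marker RNA in the immune libraries was also higher with PTX, as given above, and its part in these rises was not tested.

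The 4 PTX values lay beyond all 4 vehicle values for 76 list genes in immune cells, 17.5% against 11.9% of shared genes, 56 of them higher and 20 lower with PTX. In fibroblasts this held for 19, 4.38% against 3.67%. The median difference over the 434 list genes was 0.28 log2 units, from a median change of 0.42 in immune cells and 0.11 in fibroblasts. Over all shared genes the medians were 0.13, 0.22 and -0.003, and 264 list genes, 60.83%, had a difference above 0 against 53.89% of shared genes. At rest 147 of the 434 list genes were at 100 CPM or more in both populations, as were 899 of the 6654 shared genes. Those 899 had a median difference of 0.24, near that of the list genes. The part of expression level in the excess of the list genes over all shared genes was not tested. Across the shared genes, which share libraries and scaling, the 2 responses had a Pearson r of 0.0371 and a Spearman rho of 0.0389. The median 95% interval of a list gene's difference reached 2.83 log2 units to each side, so for most of them a difference of several fold was not detectable at this spread.

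**Figure D2:**
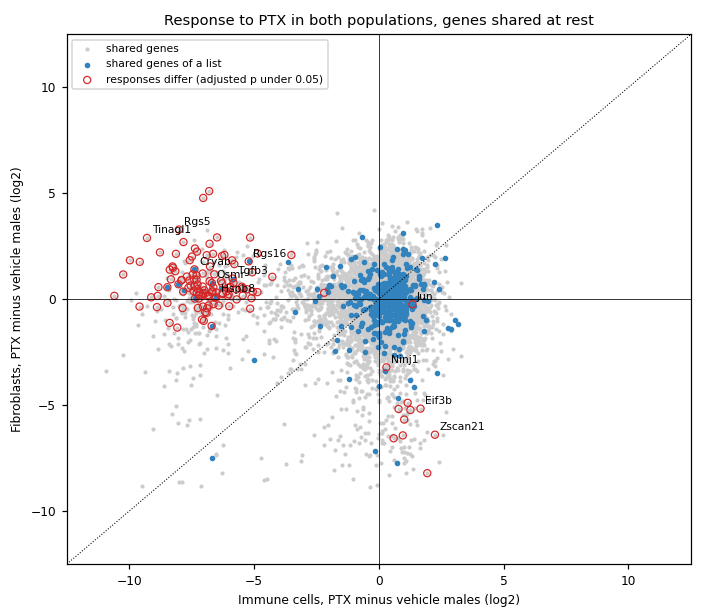
Each point is a shared gene, with its log2 change by PTX in immune cells on the x axis and in fibroblasts on the y axis; blue points are the 434 list genes, red rings the genes whose difference passed, and the dotted diagonal marks equal changes. The 118 lower calls lie to the left of the diagonal and the 11 higher calls to its right, and the cloud shows no clear slope (Pearson r 0.0371).

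Among the 36 shared immediate early genes, 3 rose in immune cells and 1 of these, Jun, rose against fibroblasts. Jun encodes a subunit of the AP-1 transcription factor. Immune vehicle libraries held 770.1, 759, 1335 and 1083 CPM and immune PTX libraries 2572, 3147, 1863 and 2451 CPM. Fibroblasts held 5283, 3407, 3348 and 4586 CPM with vehicle and 3771, 4232, 2219 and 3890.5 CPM with PTX. All immune PTX values lie above all immune vehicle values, while the fibroblast groups overlap, and all fibroblast libraries but PTX 3 lie above the immune PTX range. The means went from 987 ± 276 to 2508 ± 527 CPM in immune cells and from 4156 ± 943 to 3528 ± 894 CPM in fibroblasts (SD, n = 4). The change was 1.35 ± 0.27 log2 units (SE) in immune cells, edgeR adjusted p 0.00318, and -0.24 ± 0.27 in fibroblasts, adjusted p 0.952. Their difference was 1.58 ± 0.38, 95% interval 0.80 to 2.36, adjusted p 0.0216. The difference lost its call in 5 of the 16 fits without 1 library (immune vehicle 1 and 2, immune PTX 2, fibroblast vehicle 1 and 4; adjusted p 0.0529 to 0.0664), and with vehicle females as controls it was 0.86, adjusted p 0.404. It also missed the threshold with RLE size factors (1.43, adjusted p 0.152), by DESeq2 (1.43, adjusted p 0.347), with plain CPM (1.15, adjusted p 0.098), by voom (1.38, adjusted p 0.141) and without both immune vehicle 4 and immune PTX 4 (1.60, adjusted p 0.081).

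Nr4a1, an orphan nuclear receptor gene, rose in immune cells by 1.21 ± 0.26 log2 units, adjusted p 0.00723: vehicle libraries held 2132, 1885, 1860.4 and 2115 CPM and PTX libraries 5242, 4456, 4067 and 4718 CPM. In fibroblasts it was 5698, 2952, 4291 and 4295 CPM with vehicle and 4392, 9902, 3831 and 5309 CPM with PTX, a change of 0.44 ± 0.26 with adjusted p 0.668. The immune groups are apart and those of fibroblasts overlap, with fibroblast PTX library 2 at the top. The difference of 0.77 ± 0.37 did not pass, adjusted p 0.343, and turned to -0.61 with vehicle females as controls. The immune rise lost its call with these controls (adjusted p 0.222), with RLE size factors (0.0703), by DESeq2 (0.204) and without both immune vehicle 4 and immune PTX 4 (0.0616). Zfp36 encodes tristetraprolin, which binds and destabilises cytokine mRNAs. It went from 1699 ± 127 to 2872 ± 796 CPM in immune cells, 0.76 ± 0.21 log2 units with adjusted p 0.0479, and the PTX values of 2221, 3991, 2879 and 2397 CPM all exceeded the vehicle values of 1672, 1569, 1873 and 1682 CPM. Fibroblasts held 6453 ± 858 and 7212 ± 1148 CPM, and the difference was 0.60 ± 0.30, adjusted p 0.379. The rise of Zfp36 lost its call in 14 of the 16 fits without 1 library, all but those without immune PTX 1 and fibroblast PTX 2, with adjusted p 0.0545 to 0.201.

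Atf3, a stress-induced factor of the same leucine zipper class as Jun, had the highest difference of its list. It was at a mean of 854 CPM with vehicle and 1648 CPM with PTX in immune cells and at 2252 and 1362 CPM in fibroblasts, a difference of 1.67 ± 0.54 with adjusted p 0.11. Cyr61, a matricellular protein gene, had the lowest, -2.56 ± 0.88 with adjusted p 0.138, from 160.1 to 41.9 CPM in immune cells and 803 to 1235 CPM in fibroblasts. Fos, the partner of Jun in AP-1, had the narrowest interval of all list genes, 0.72 with 95% interval 0.15 to 1.29, and did not pass, adjusted p 0.197. In 11 of the 36 genes, 30.6%, the immune PTX values lay above all vehicle values, and in none below. Over all shared genes the immune groups were apart in 11.9%, in either direction. In fibroblasts the groups were apart for 1 of the 36, 2.78% against 3.67% of shared genes. The median difference of the list was 0.44 log2 units, with 25 of 36 genes above 0, 69.44% against 53.89% of shared genes. At rest 25 of the 36 were at 100 CPM or more in both populations, and the 899 shared genes at that level had a median difference of 0.24.

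Both NF-kB feedback inhibitors that rose in immune cells, Nfkbia and Tnfaip3, had positive changes in fibroblasts too. Nfkbia, whose product holds NF-kB in the cytoplasm, went from 1541, 1634, 1674 and 2017 CPM to 4052, 3608, 3143 and 3304 CPM in immune cells. In fibroblasts it went from 3916, 2406, 3107 and 2812 to 3438, 5807, 6150.1 and 3463 CPM. Between the immune groups lies a wide gap, and the fibroblast groups overlap. The changes were 1.04 ± 0.24 log2 units, adjusted p 0.0126, and 0.62 ± 0.24, adjusted p 0.36, and the difference was 0.42 ± 0.34, 95% interval -0.28 to 1.11, adjusted p 0.76. Nfkbia lost its immune call in 5 fits without 1 library, immune vehicle 1, 2 and 3 and immune PTX 1 and 2, adjusted p 0.0541 to 0.0685.

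Tnfaip3 encodes A20, a ubiquitin-editing enzyme that shuts NF-kB signalling off. Its immune values were 549, 424, 535 and 627 CPM with vehicle and 1497, 1725, 1449 and 2221 CPM with PTX, a rise of 1.69 ± 0.39 log2 units with adjusted p 0.0131. Its fibroblast values were 824, 368, 758 and 457 CPM and 932, 1913, 542 and 531 CPM, 0.70 ± 0.39 with adjusted p 0.595. Every immune PTX library was above every immune vehicle library of either sex, and in fibroblasts PTX library 2 alone was far above the rest. The difference was 0.99 ± 0.54, adjusted p 0.458. The rise lost its call without immune vehicle 2 or immune PTX 4, adjusted p 0.0588 to 0.0604. Nfkbiz, an atypical inhibitor that acts in the nucleus, had the lowest p of the list: 680.5 ± 166 and 1288 ± 374 CPM in immune cells, 991 ± 358 and 727 ± 253 CPM in fibroblasts, a difference of 1.37 ± 0.49 with adjusted p 0.161. None of the 24 shared genes of this list passed for the difference by edgeR, 1 had an unadjusted p under 0.05, and DESeq2 and voom called 0. Estimates ran from -1.87 for Nfkb1, a subunit of NF-kB, to 2.99 for Ikbkb, a kinase that triggers decay of the inhibitors, and the list's median was 0.30.

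Of the 19 cytokines and chemokines that both populations express at rest, 3 rose in immune cells and none differed between the populations by edgeR, with 3 at an unadjusted p under 0.05 and 1 called lower by DESeq2. Cxcl10, an interferon-inducible chemokine that draws T cells, was at 68.3, 56.3, 37.4 and 70.2 CPM in immune vehicle and 169.6, 308, 218 and 544 CPM in immune PTX libraries. Fibroblasts held 89.9, 91.7, 96.7 and 161 and 166, 57.4, 218 and 168 CPM. The immune values are apart without overlap and the fibroblast values overlap. The rise was 2.42 ± 0.63 log2 units in immune cells, adjusted p 0.0322, against 0.47 ± 0.60 in fibroblasts, and the difference was 1.95 ± 0.86, unadjusted p 0.0329 and adjusted p 0.282.

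Ccl7, which draws monocytes, went from 823 ± 204 to 2114 ± 691 CPM in immune cells, 1.36 ± 0.37 log2 units with adjusted p 0.0418, and from 1222 ± 413 to 1969.5 ± 1250.1 CPM in fibroblasts, 0.69 ± 0.37 with adjusted p 0.575. Its PTX values of 1209, 2461, 1979.9 and 2805 CPM exceed those of vehicle males, but only 2 of the 4 exceed all vehicle females, which held 1970.0, 1034, 2102 and 919 CPM. The difference was 0.67 ± 0.52, adjusted p 0.734. Tnfsf9, the ligand of the costimulatory receptor 4-1BB, had the lowest p for the difference among these genes. Immune vehicle libraries held 619, 341, 399.6 and 364 CPM and PTX libraries 897, 923, 999 and 1207 CPM, against 1343, 967, 959 and 851 and 954, 668, 902 and 1336 CPM in fibroblasts. At rest fibroblasts were the higher population in every library, and with PTX the immune and fibroblast values overlap. It rose by 1.22 ± 0.32 log2 units in immune cells, adjusted p 0.0322, while the fibroblast change was -0.09 ± 0.32 and the difference 1.32 ± 0.45, unadjusted p 0.00742 and adjusted p 0.136.

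The 3 rises each depend on most of the immune libraries. Without 1 library, Cxcl10 lost its call in 7 of 16 fits, those without an immune library other than immune PTX 1, adjusted p 0.0542 to 0.143. Ccl7 lost it in 10, the same 7 immune libraries and fibroblast vehicle 1, PTX 1 and PTX 4, adjusted p 0.0568 to 0.172. Tnfsf9 lost it in 8, every immune library but vehicle 1 and also fibroblast PTX 1, adjusted p 0.0533 to 0.131. Cxcl5, a neutrophil chemokine, had the next lowest p. Its immune counts summed to 1134 with vehicle and to 3 with PTX, a ratio of 249 with a counting interval of 85.1 to 1210. The vehicle values were 0, 41.5, 8.92 and 1.36 CPM, with library 2 far above the others and library 1 at 0, so the immune groups overlap, and the difference of -8.22 ± 2.82 did not pass, adjusted p 0.137.

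Heat shock genes held both directions: of 26 shared chaperone genes Hspa1a rose in immune cells, and Cryab and Hspb8 fell there and against fibroblasts. Hspa1a encodes the inducible HSP70 chaperone; it has a near-identical copy, Hspa1b, so its counts are uncertain. Immune vehicle libraries held 1092, 1062, 1165 and 969.7 CPM and PTX libraries 2664, 4089, 2818 and 5082 CPM, against 931, 1953, 1208 and 2998 and 3151, 1901, 1535 and 3299.9 CPM in fibroblasts. All immune PTX values were above all immune vehicle values of both sexes, and the fibroblast groups overlap. The change was 1.77 ± 0.34 log2 units in immune cells, adjusted p 0.00194, and 0.48 ± 0.33 in fibroblasts, adjusted p 0.799. The difference, 1.29 ± 0.47, did not pass, adjusted p 0.161. The immune rise passed in all 16 fits without 1 library and also with vehicle females as controls, where it was 1.38 with adjusted p 0.0369, but not without both immune vehicle 4 and immune PTX 4, where it was 1.498 with adjusted p 0.0731.

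Cryab encodes alpha B-crystallin. Its immune vehicle values were 28.5, 50.4, 18.8 and 53.9 CPM and its immune PTX values 0.282, 0.168, 0.198 and 0.229 CPM, from counts of 4, 3, 3 and 3. Fibroblasts held 87.9, 49.3, 109 and 54.4 CPM with vehicle and 81.2, 284, 313 and 122 CPM with PTX. The difference was -8.80 ± 1.35, adjusted p 0.000219, with -7.39 ± 1.10 in immune cells and 1.41 ± 0.83 in fibroblasts. Hspb8, a small heat shock protein that works with the cochaperone Bag3, was at 26.1, 47.2, 37.02 and 71.2 CPM in immune vehicle and 0.706, 0.281, 0.593 and 0.382 CPM in immune PTX libraries, and at 363 and 389 CPM on average in fibroblasts. Its difference was -6.62 ± 0.92, adjusted p 6.86e-05. Both were near 0 in every immune PTX library, and the fitted size of such a change depends on the small count added in fitting and is no bound. Vehicle females, the other resting group, held 0.0891, 2.53, 5.63 and 4.95 CPM of Cryab and 0.223, 0.248, 1.23 and 5.84 CPM of Hspb8 in immune cells, below all vehicle males, and no PTX library lay below all 4 of them for either gene. With vehicle females as controls neither difference passed. Hspb8 lies just inside the limit on resting levels, with fibroblasts 7.99-fold above immune cells. Both fell with the fibroblast markers of the immune libraries, whose part in these results was not tested. In 8 of the 26 chaperone genes all immune PTX values were above the vehicle ones and in 2 below. Both directions together make 38.5%, against 11.9% of shared genes, and the list's median difference was 0.38.

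In the unfolded protein and integrated stress response, 1 of 27 shared genes rose in immune cells and none differed between the populations by edgeR, DESeq2 or voom, with 0 at an unadjusted p under 0.05 by edgeR. That gene was Ppp1r15a, which encodes GADD34, the phosphatase subunit that restores translation after stress. Immune libraries held 491, 523, 517 and 620.4 CPM with vehicle and 1275, 1252, 948 and 1211 CPM with PTX. Fibroblasts held 1798, 1247, 1936 and 2297 and 1896, 4068, 1690.2 and 1932 CPM. The immune groups are apart, and fibroblast PTX library 2 stands above the other fibroblast values. The change was 1.12 ± 0.30 log2 units in immune cells, adjusted p 0.036, and 0.40 ± 0.30 in fibroblasts, with a difference of 0.73 ± 0.42, adjusted p 0.501. The rise lost its call in 9 of the 16 fits, those without any 1 of the 8 immune libraries and without fibroblast PTX 4, adjusted p 0.051 to 0.108. Derl2, part of the channel that exports misfolded proteins from the endoplasmic reticulum, had the next lowest p, with a difference of 2.83 ± 1.70 and adjusted p 0.535.

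**Figure D3:**
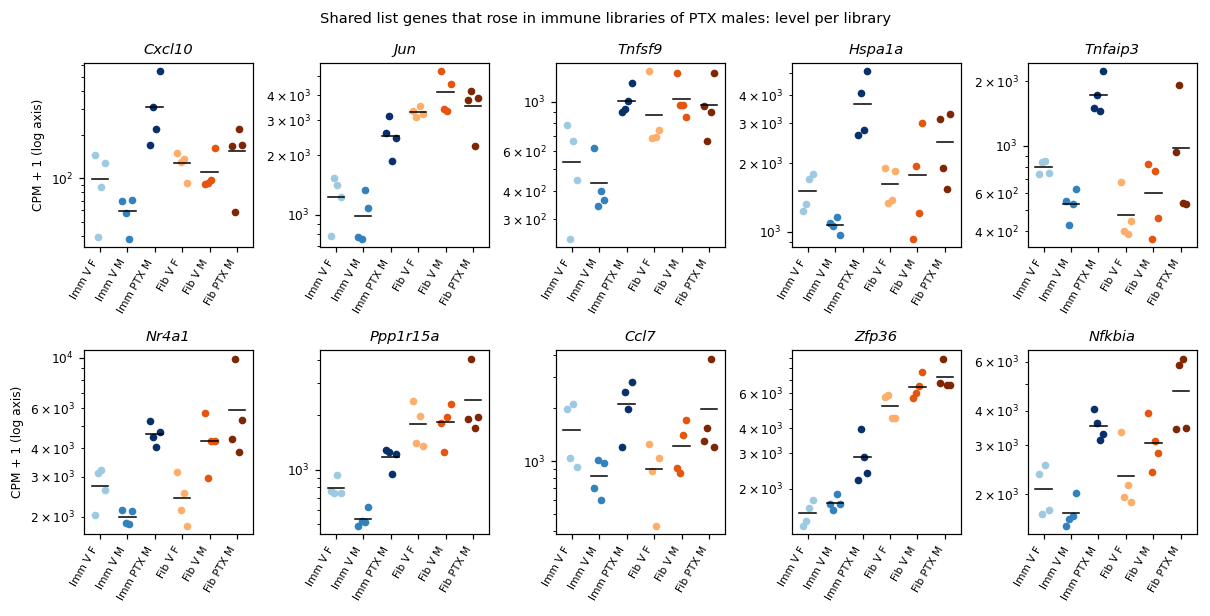
CPM + 1 on a log axis of the 10 list genes that rose in immune cells, 1 panel a gene and 1 point a library, with a line at each group's mean; immune (Imm) and fibroblast (Fib) groups are vehicle (V) females (F), vehicle males (M) and PTX males. In each panel the 4 immune PTX points lie above the 4 immune vehicle males, and the fibroblast PTX points overlap the fibroblast vehicle males.

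Among 22 shared cytokine and chemokine receptors, Osmr had the lowest p of all list genes. It encodes the oncostatin M receptor subunit, through which this cytokine and interleukin 31 act on skin cells. Immune vehicle libraries held 23.99, 76.96, 33.6 and 159 CPM and immune PTX libraries 1.20, 0.449, 0.857 and 0.306 CPM, from 17, 8, 13 and 4 counts. Fibroblasts held 269, 488, 768 and 384 CPM with vehicle and 474, 1055, 563 and 1155 CPM with PTX. PTX lies below vehicle in every immune library, and the fibroblast groups overlap with the higher mean under PTX. Osmr fell by 6.69 log2 units in immune cells, SE 0.73, adjusted p 9.95e-07, and its change in fibroblasts was 0.77 ± 0.57, adjusted p 0.843. The difference was -7.46 ± 0.90, adjusted p 1.26e-05. Its call held in all 16 fits without 1 library and with vehicle females as controls. Those females held 0.579, 7.89, 19.9 and 5.94 CPM, and 2 of the 4 PTX libraries were below all of them. By voom neither the difference (adjusted p 0.2075) nor the immune fall (0.097) passed. Fibroblasts were 6.51-fold above immune cells at rest. Osmr fell with the fibroblast markers of the immune libraries, whose part in this result was not tested. Tnfrsf1b, a receptor of tumour necrosis factor, had the highest difference of the list, 2.94 ± 1.02, from 413 to 804 CPM in immune cells and 75.03 to 19.1 CPM in fibroblasts, with adjusted p 0.144.

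The transforming growth factor beta list, which holds the factors that drive matrix production in fibroblasts, had 2 of 24 shared genes lower by edgeR; DESeq2 called these 2 and, as higher, Smurf1. Tgfb3, one of the ligands, was at 2.97, 23.3, 27.5 and 20.7 CPM in immune vehicle and 0.917, 0.0561, 0.0659 and 0.229 CPM in immune PTX libraries. In fibroblasts it was at 134, 108, 222 and 127 and 374, 568, 162 and 59.4 CPM. All immune PTX values were under 1 CPM, below every immune vehicle male and female, and the fibroblast groups overlap. The difference was -6.83 ± 1.38, adjusted p 0.00511; its resting levels were 7.93-fold apart, just inside the limit. With vehicle females as controls neither the difference, -5.21 with adjusted p 0.0839, nor the immune change, -3.94 with adjusted p 0.0687, passed. Tgfb1i1, which encodes the focal adhesion protein Hic-5, was at 23.97 CPM and 0.225 CPM in immune cells and at 410.0, 55.96, 107 and 45.1 and 91.9, 22.6, 65.4 and 78.1 CPM in fibroblasts. Its difference of -5.44 ± 1.5003, adjusted p 0.049, lost its call in 15 of the 16 fits without 1 library, all but that without fibroblast PTX 2, with adjusted p 0.0573 to 0.117. Id3, a target of bone morphogenetic protein signalling, did not pass at -2.59 ± 0.85 and adjusted p 0.117. The median of this list was -0.10.

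Rgs16, a brake on G protein signalling, was the lower gene of 27 in its list. It was at 7.36, 55.2, 42.3 and 179 CPM in immune vehicle and 1.06, 4.66, 0.791 and 1.07 CPM in immune PTX libraries, and at 5.69, 368, 298 and 357 and 1134, 1836, 301 and 274 CPM in fibroblasts. Every immune PTX value was below every immune vehicle value of either sex, and fibroblast vehicle library 1 was far below its group. The difference was -7.00 ± 1.39, adjusted p 0.0046, with -5.22 ± 1.07 in immune cells and 1.79 ± 0.92 in fibroblasts, adjusted p 0.539. It passed in all 16 fits without 1 library and with vehicle females as controls, but not by voom, adjusted p 0.428. The immune fall did not pass by voom (adjusted p 0.328) or without both immune vehicle 4 and immune PTX 4 (0.0923). Fibroblasts were 3.62-fold above immune cells at rest. Rgs16 fell with the fibroblast markers of the immune libraries, whose part in this result was not tested.

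Ptgis, which encodes prostacyclin synthase, was the 1 lower gene of the 8 prostaglandin and leukotriene genes shared. Its immune vehicle values were 11.02, 24.5, 13.02 and 57.4 CPM and its PTX values 0.0706, 0.0561, 0.0659 and 0.0765 CPM, that is 1 count in each library, while vehicle females held 0.0891, 0.0496, 0.0988 and 0 CPM. Fibroblasts held 130.2, 76.1, 34.8 and 0.352 and 175, 0.323, 60.5 and 122 CPM. PTX and female immune libraries overlap near 0, and each fibroblast group has 1 library near 0. The difference was -9.04 ± 2.30, adjusted p 0.0332. Against vehicle females it was 0.18 and no longer passed. It also lost its call in 10 of the 16 fits without 1 library (immune vehicle 2 and 4, all 4 immune PTX, fibroblast vehicle 1, 2 and 3, fibroblast PTX 1), adjusted p 0.0503 to 0.0845.

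Phlda3, a p53 target that restrains the kinase AKT, was the 1 gene of 17 in the p53 list that edgeR called; DESeq2 called it and Rrm2b. It was at 47.8, 25.2, 13.3 and 29.3 CPM in immune vehicle and 0.141, 0.0561, 0.0659 and 0.153 CPM in immune PTX libraries. Fibroblasts held 29.7, 38.99, 28.7 and 36.2 and 26.2, 0.430, 2.83 and 189 CPM. Here too the immune groups do not overlap, and fibroblast PTX ranges from near 0 to well above the vehicle values. The difference was -8.74 ± 2.31, adjusted p 0.0413. It lost its call in 13 of the 16 fits, all but those without fibroblast PTX 1, 2 and 3, adjusted p 0.0589 to 0.144. Rrm2b, a subunit of ribonucleotide reductase that p53 induces, had the highest difference of all list genes, 8.43 ± 3.19, at low levels of 7.63 and 12.51 CPM in immune cells and 11.2 and 0.0483 CPM in fibroblasts, and did not pass by edgeR, adjusted p 0.19, while DESeq2 called it higher. The median of the list was 0.82, the highest of the 19, but 9 of 17 genes were above 0, 52.94% against 53.89% of shared genes.

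**Figure D4:**
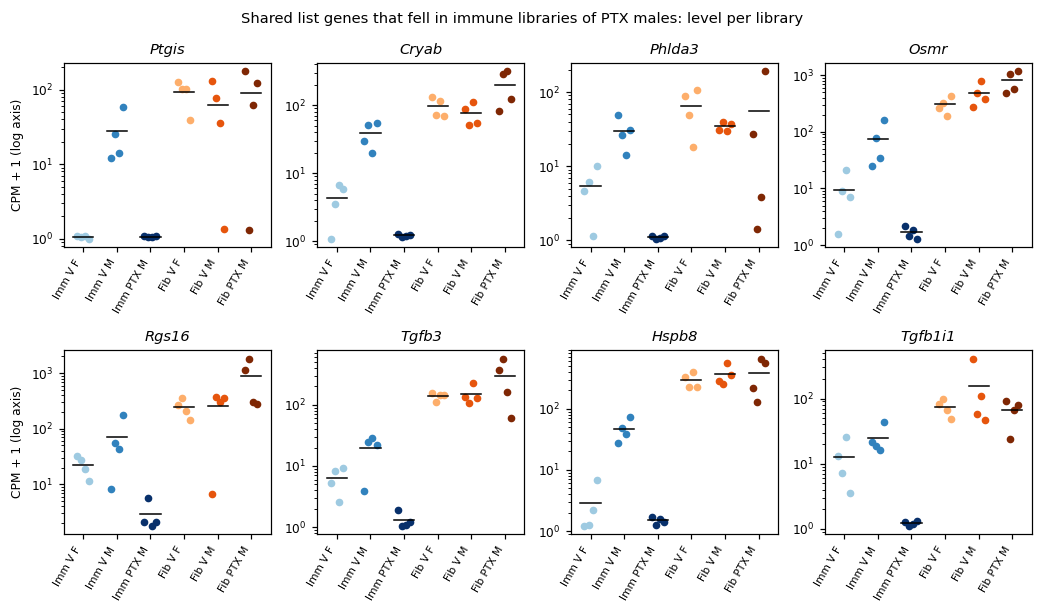
CPM + 1 on a log axis of the 8 list genes with the lower response in immune cells, 1 panel a gene and 1 point a library, with a line at each group's mean and the same 6 groups of immune (Imm) and fibroblast (Fib) libraries, vehicle (V) and PTX, females (F) and males (M). Immune PTX points lie at the bottom in each panel, and for Ptgis the immune vehicle females lie there too. For Cryab and Hspb8 the immune vehicle females lie below all immune vehicle males. The lowest of these females lies below the PTX points, and others lie above them.

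The remaining lists had no call for the difference by edgeR. Among 16 apoptosis regulators the lowest p belonged to Cflar, which encodes the caspase 8 inhibitor FLIP. Immune cells held 90.6, 93.8, 120.1 and 118 and then 148, 237, 235 and 249 CPM, and fibroblasts 179.8, 102, 82.02 and 65.98 and then 38.4, 28.4, 42.2 and 47.01 CPM. The groups are apart in both populations and in opposite directions, yet the difference of 2.5006 ± 0.91 did not pass, adjusted p 0.167. Bcl2l1, an antiapoptotic gene, followed at 3.54 ± 1.55, adjusted p 0.279. The median of this list was -0.23 and 2 of its genes had an unadjusted p under 0.05; DESeq2 called Cflar higher, adjusted p 0.033.

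Interferon-stimulated genes had 20 of 25 differences above 0, 80% against 53.89% of shared genes, with a median of 0.76. None passed by edgeR, DESeq2 or voom, while 2 had an unadjusted p under 0.05 by edgeR. Ifih1, a sensor of double-stranded RNA, was at 21.02, 15.03, 17.4 and 23.6 CPM in immune vehicle and 118, 329, 46.6 and 78.1 CPM in immune PTX libraries. In fibroblasts it was at 151, 12.53, 22.6 and 129.9 and 30.6, 43.5, 45.7 and 0.437 CPM. The immune groups are apart and those of fibroblasts overlap; the difference was 4.29 ± 1.63, adjusted p 0.193. Stat2, which carries the interferon signal to the nucleus and belongs to the JAK-STAT list as well, went from 34.03 ± 5.46 to 116 ± 62.4 CPM in immune cells and from 143 ± 64.5 to 81.6 ± 84.8 CPM in fibroblasts, 2.58 ± 1.22 with adjusted p 0.336. In 7 of the 25 genes, 28%, all immune PTX values exceeded the vehicle values and in none were they below, against 11.9% of shared genes apart in either direction. Over the 24 JAK-STAT genes the median was 0.49 and 1 gene, Stat2, had an unadjusted p under 0.05; Socs1, a feedback inhibitor of the kinases, followed at 2.45 ± 1.59, adjusted p 0.605, with immune PTX library 4 at 165 CPM and the other immune libraries at 17.6 to 34.1 CPM.

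Of 20 genes of Toll-like receptors and innate sensing, 1 had an unadjusted p under 0.05, Tbk1, a kinase that activates interferon regulatory factors. Its immune values were 74.4, 44.2, 48.5 and 69.95 and 106, 82.1, 134 and 154 CPM and its fibroblast values 379, 97.9, 78.3 and 14.2 and 58.3, 41.5, 36.1 and 48.1 CPM. The immune groups are apart, the fibroblast ones overlap, and the difference was 2.64 ± 1.20, adjusted p 0.307. Tmem173, which encodes the DNA sensing adaptor STING, went from 88.6 ± 36.8 to 219 ± 40.02 CPM in immune cells and from 116 ± 125 to 51.9 ± 36.6 CPM in fibroblasts, 2.46 ± 1.40 with adjusted p 0.483.

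Among 37 MAP kinases and their phosphatases the lowest p values fell on 2 feedback inhibitors with opposite signs. Dusp16, a phosphatase of JNK and p38, was at 20.9, 13.7, 26.8 and 15.5 and 88.1, 0.674, 142 and 150.5 CPM in immune cells and 193, 28.2, 101 and 62.8 and 17.6, 0.323, 0.685 and 15.5 CPM in fibroblasts, 5.81 ± 1.95 with adjusted p 0.128. Spry4, an inhibitor of receptor tyrosine kinase signalling, was at 14.5 and 0.0811 CPM in immune cells and 39.8 and 41.7 CPM in fibroblasts, -7.41 ± 2.81 with adjusted p 0.19. In both genes libraries lie near 0, among them immune PTX library 2 for Dusp16 and fibroblast PTX libraries 2 and 3 for Spry4. The PI3K, mTOR and FOXO list of 24 genes had Foxo1, a transcription factor that AKT excludes from the nucleus, at -5.43 ± 2.07, adjusted p 0.193, and Rictor, a core subunit of the mTOR complex that phosphorylates AKT, at 5.41 ± 2.35, adjusted p 0.272. None of these 4 genes passed by edgeR or voom, but DESeq2 called all 4 with the same signs, Dusp16 at adjusted p 0.00315, Spry4 at 0.0126, Foxo1 at 0.00591 and Rictor at 0.0219. The median of the PI3K list was 0.63, with 14 of 24 genes above 0, 58.33% against 53.89% of shared genes.

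Of 23 genes of oxidative stress and iron, Mt2, a metallothionein that binds zinc, was at 233, 476, 311 and 441 and 29.4, 147, 104 and 251 CPM in immune cells and at 1446, 1740.4, 2328 and 1963 and 1778, 2059.8, 5392 and 1985 CPM in fibroblasts, a difference of -2.04 ± 0.65 with adjusted p 0.0992. Bach1, a repressor of the haem oxygenase gene, was at 29.8 and 79.3 CPM in immune cells and 70.7 and 4.03 CPM in fibroblasts, 5.54 ± 1.79 with adjusted p 0.107. Neither passed by edgeR, and DESeq2 called Bach1 higher. The 17 hypoxia and glycolysis genes had no gene at an unadjusted p under 0.05, and neither DESeq2 nor voom called one; the lowest p were those of Pfkfb3, a glycolytic regulator, at -2.18 ± 1.36, adjusted p 0.573, and Hk2, a hexokinase, at -1.14 ± 0.76, adjusted p 0.624.

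Tubulin is the protein that PTX binds. None of the 19 shared tubulin and microtubule genes passed in either population or for the difference by edgeR, none had an unadjusted p under 0.05 for the difference, and DESeq2 and voom called 0 for it. The median difference was 0.03, and no gene had immune groups apart, against 11.9% of shared genes. Tubb6, a beta tubulin, held 569, 557, 453 and 545 and 355, 510.1, 627 and 616 CPM in immune cells and 438, 428, 617 and 454 and 392, 214, 147 and 365 CPM in fibroblasts. The fibroblast groups do not overlap and the immune groups do; the difference was 0.78 ± 0.54, 95% interval -0.34 to 1.90, adjusted p 0.654. Tubb2c, another beta tubulin, had 1.89 ± 1.53, adjusted p 0.757.

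**Figure D5:**
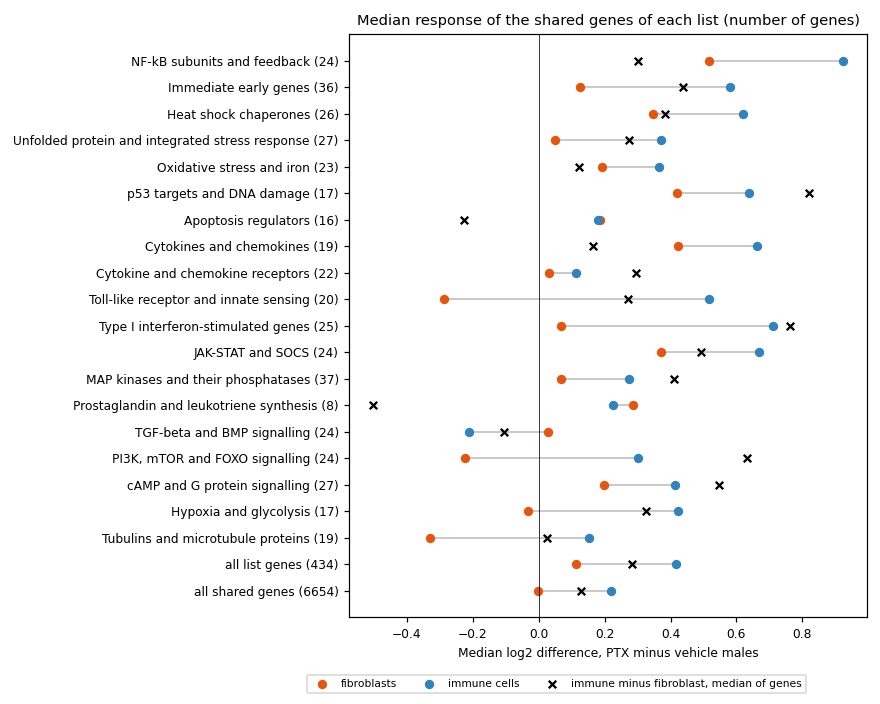
For each of the 19 lists and for all list and all shared genes, dots show the median log2 change by PTX in immune cells and in fibroblasts and a cross the median of the genes' differences (x axis, log2 units; the number of shared genes stands beside each name). Crosses run from -0.50 for the 8 prostaglandin and leukotriene genes to 0.82 for the p53 list, against 0.13 for all shared genes.

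List medians move with the scaling. The median difference over all shared genes was 0.13 with TMM, 0.01 with RLE size factors and -0.28 with plain CPM, and each list median is to be read against it. Over 20 alternatives the medians of the interferon list (0.24 to 1.11), the JAK-STAT list (0.04 to 0.66) and the apoptosis list (-0.72 to -0.10) kept their sign, and the other 16 changed sign in 1 to 9 of them.

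For 7 of the 434 list genes the 95% interval of the difference lay wholly within 2-fold. The genes were picked out by that limit after their values were seen, so the intervals do not show equal responses. Each interval is for 1 gene and is given with TMM scaling alone. With plain CPM the median difference over all shared genes was -0.28 and not 0.13. The 7 were Egr1 at 0.04 (-0.72 to 0.81), Junb at 0.07 (-0.52 to 0.67), Ier3 at 0.01 (-0.83 to 0.85), Hsp90ab1 at 0.16 (-0.59 to 0.92), Hspa5 at 0.02 (-0.82 to 0.87), Ftl1 at 0.12 (-0.70 to 0.94) and H2-D1 at 0.18 (-0.57 to 0.92). Junb, like Jun a subunit of AP-1, held 2156, 2078, 2605 and 2227 and 3649, 3568, 2899 and 2985 CPM in immune cells and 3291, 3885, 4063 and 4692 and 4367, 6051, 5300.2 and 6159 CPM in fibroblasts. Its mean was higher with PTX in both populations, 2267 to 3276 CPM and 3983 to 5469 CPM, and so were those of Hsp90ab1, a constitutive HSP90 chaperone, 1627 to 2951 CPM and 2251 to 3642 CPM. Egr1, a zinc finger factor of the immediate early class, was lower with PTX in both, 1496 to 1178 CPM and 7165 to 5472 CPM. None of the 7 passed within a population by edgeR or DESeq2, while voom called the immune rise of Hsp90ab1, Ftl1 and H2-D1. Ftl1, a ferritin light chain, and H2-D1, a class I histocompatibility gene, have close copies, so their counts are uncertain. All 7 were at 100 CPM or more at rest in both populations; of the 147 list genes at that level 1, Jun, was called by edgeR, and DESeq2 called Cflar, which is also at that level, and not Jun.

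Outside the lists the calls of the difference came from groups near 0 as well. Of the 11 shared genes with the higher response in immune cells, 9 had a fibroblast PTX mean under 5 CPM, 1, Jun, rose in immune cells and 2, Mtmr10 and Ninj1, fell in fibroblasts. Ninj1, a membrane protein that breaks the plasma membrane at lytic cell death, held 710.0, 707, 699 and 663 and 724, 628, 686 and 1391 CPM in immune cells. In fibroblasts it held 122, 61.3, 48.9 and 120.5 and 20.98, 3.87, 9.51 and 3.50 CPM. The fibroblast groups are apart, and the immune groups overlap with PTX library 4 high. The difference was 3.52 ± 0.74, adjusted p 0.00743, and the fibroblast change -3.22 ± 0.55, adjusted p 0.0485. Mtmr10, a gene of the myotubularin family, had 98.8, 42.97, 36.1 and 80.9 CPM in fibroblast vehicle and 0.457, 1.07, 2.14 and 3.43 CPM in fibroblast PTX libraries, but the vehicle females were already at 11.5, 6.09, 23.9 and 3.73 CPM. Its difference was 5.97 ± 1.22, adjusted p 0.00614.

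The other 7 named higher genes were Taf1b (10.15), Zscan21 (8.65), Vrk1 (7.16), Eif3b (6.83), Orai1 (6.70), Tbc1d14 (6.49) and Rasgef1b (6.05), with adjusted p from 0.0198 to 0.0485. Orai1 is the pore of the calcium channel that opens when stores are empty, Eif3b a subunit of a translation initiation factor and Vrk1 a nuclear kinase. Eif3b fibroblast values were 239, 62.1, 46.8 and 167 CPM with vehicle and 11.03, 1.505, 1.54 and 0.219 CPM with PTX, while the immune ones were 19.7, 37.9, 25.7 and 52.3 and 40.6, 132, 119 and 139 CPM. The fibroblast groups of Eif3b are apart and the immune groups overlap. In the other 6 the fibroblast PTX values were all under 3 CPM, and in each of them 1 fibroblast vehicle library was also under 2 CPM. All 7 lost their call without 1 library in 4 (Eif3b), 7 (Rasgef1b), 8 (Tbc1d14), 10 (Orai1), 14 (Taf1b and Vrk1) or 15 (Zscan21) of the 16 fits.

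The lower genes named outside the lists were Tinagl1 (-12.18), Ptk7 (-11.90), Ano1 (-11.82), Fscn1 (-11.81), Krtdap (-11.41), Dock6 (-11.34), Rgs5 (-11.30) and Mylk (-10.27). Rgs5 is a pericyte marker, Mylk encodes the kinase that triggers smooth muscle contraction, and Krtdap is expressed by keratinocytes. Rgs5 held 7.75, 108, 57.2 and 283 CPM in immune vehicle and 0.706, 0.225, 0.659 and 0.153 CPM in immune PTX libraries, and 65.8, 85.5, 67.8 and 79.1 and 528, 2124, 87.8 and 176 CPM in fibroblasts. The groups of Rgs5 are apart in both populations and in opposite directions, with a difference of -11.30 ± 1.46 and adjusted p 2.56e-05. All 4 immune PTX libraries were at 0 for Fscn1, at least 37.7-fold lower than vehicle, taking 3 counts per library as the floor. Over the group, immune counts went from 1783 to 1 for Dock6, a ratio of 1180 (counting interval 211 to 46500), and from 2883 to 1 for Krtdap, 1900 (341 to 75100). Intervals and floors cover counting error only. Of these 8, Fscn1 lost its call without 1 library in 11 of the 16 fits, Dock6 in 7 and Mylk in 4; the other 5 kept it in all 16.

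The 118 shared genes with the lower response were chosen by the difference between the responses, from the same values as given here. By definition all were at 5 CPM or more in immune vehicle males. A fall in immune cells or a rise in fibroblasts is therefore in part built in, and the values that follow only describe the 118. In 114 of them, 96.6%, the immune PTX mean was under 5 CPM, and 114 fell in immune cells by their own test, while 1, the growth factor carrier gene Igfbp3, named after its values were seen, rose in fibroblasts. Their median level went from 30.51 to 0.2199 CPM in immune cells and from 102.8 to 168.6 CPM in fibroblasts. At rest, 85 of the 118, 72%, were at least 2-fold higher in fibroblasts, against 30.6% of all shared genes, and their median resting ratio of fibroblasts to immune cells was 3.75 against 1.38. In vehicle females the median immune level of the same genes was 5.638 CPM, and 54, 45.8%, were under 5 CPM there, against 5.34% of all shared genes. Of the 118, 32 were also shared by the vehicle females. The summed RNA of fibroblast, pericyte, endothelial and keratinocyte markers in the immune libraries moved the same way: pericyte and smooth muscle markers were at 430.3 to 2758 CPM in vehicle males, 2.50 to 39.7 CPM in PTX males and 177 to 769 CPM in vehicle females. Endothelial markers were at 125 to 982, 0.397 to 82.4 and 82.3 to 228 CPM, with Kdr, Emcn, Selp and Nos3 at 0 in all immune PTX libraries, and basal keratinocyte markers at 107 to 3053, 27.1 to 95.6 and 38.1 to 108 CPM. The part of this RNA in the results was not tested. The 10 genes that rose had the 4 immune PTX values above all vehicle females too, except Ccl7.

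The limit on resting levels bears on the lower calls. Shared genes whose resting means were 6 to 8-fold apart, 228 genes, had a median difference of -0.78, and 117 genes just outside, 8 to 10-fold apart, had -2.75. Among the genes that met the level but lay past 8-fold, the 330 higher in fibroblasts had a median of -4.13 and the 80 higher in immune cells 0.08.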

How the data were processed

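Per the labels' protocols, poly(A) RNA went into stranded TruSeq libraries that were read from 1 end for 50 bases. The authors used bcl2fastq, TopHat2, mm9 and HTSeq, per the submitters' processing notes (not given in the sources used here: versions, annotation, counting strand). What the authors deposited is a raw count of reads for each symbol, not normalized. HTSeq's lines that name no gene (10.4 to 19.8% of reads in no feature, 34.9 to 47.8% without a unique place) stayed out of library sizes and tests. Genes with near-identical copies lose such reads.

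The members and lists were chosen with earlier results of these data known. In R 4.3.3, edgeR 4.0.16 was fitted to the 16 libraries (filterByExpr, TMM, 1 coefficient per group, robust glmQLFit), and the contrasts were tested two-sided by its quasi-likelihood F-test, and p was adjusted by Benjamini-Hochberg over 12369 genes, threshold 0.05; every adjusted p in the text is of this kind unless another tool is named. limma 3.58.1 (voom) and DESeq2 1.42.0 were alternatives, with other scalings, filters, controls and definitions of shared, a replicate block and each library left out. Lists were described by counts and medians, and no set test was run.

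Genes were named by rule: per list up to 4 that passed with the lowest p, or else 2 with the lowest p, and per direction the 10 largest differences that passed with a group mean of at least 10 CPM, leaving out clones, predicted, ribosomal and mitochondrial genes. This gave 51 genes, of which 2 are not reported here. A further 6 (Ccl7, Cxcl10, Hspa1a, Nfkbia, Nr4a1, Zfp36) were named because they rose in immune cells, and Atf3, Cyr61, Fos, Id3, Ikbkb, Nfkb1, Rrm2b, Tnfrsf1b, Hdc and Igfbp3 after their values were seen. No 2 replicates agreed within sampling noise (smallest chi-square per degree of freedom 87.46). The fit was tested on simulated data.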

Additional observations from a re-analysis of the deposited data

Results flagged for a closer look

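In some groups of 4 libraries a single library stood far from the others: its gap to the nearest value exceeded, as a share of the group's range, the 95% critical value of Dixon's test for 4 samples. This held for 23 of 219 groups of the 55 named genes reported, 10.5%, with 21 at the high end and 2 at the low end. The test's rate of about 1 in 20 is that for normally distributed values. CPM values without a log need not be so distributed, so the 10.5% does not show an excess over chance. All values are CPM.

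In immune vehicle libraries, the value that stood apart was that of Ano1 at 60.3 (next 7.56). In immune PTX libraries, the values that stood apart were those of Cflar at 148 (next 235), Dock6 at 0.0765 (next 0), Krtdap at 0.0765 (next 0), Mtmr10 at 42 (next 261), Ninj1 at 1391 (next 724), Rgs16 at 4.66 (next 1.07) and Socs1 at 165 (next 34.1). In fibroblast vehicle libraries, the values that stood apart were those of Cxcl10 at 161 (next 96.7), Dock6 at 58.5 (next 8.24), Pfkfb3 at 117 (next 8.72), Tgfb1i1 at 410 (next 107) and Tubb6 at 617 (next 454). In fibroblast PTX libraries, the values that stood apart were those of Ccl7 at 3833 (next 1534), Cxcl5 at 163 (next 18), Eif3b at 11 (next 1.54), Fscn1 at 65.2 (next 25.1), Mt2 at 5392 (next 2060), Phlda3 at 189 (next 26.2), Ppp1r15a at 4068 (next 1932), Ptk7 at 1206 (next 140), Taf1b at 0.343 (next 0.114) and Zfp36 at 8930 (next 6755). Cflar and Mtmr10 stood apart at the low end, and the rest at the high end. Dock6 and Krtdap rest on a single count in a library. The high fibroblast PTX values of Ccl7, Zfp36 and Ppp1r15a bear on the fibroblast side of their differences, which did not pass.

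The response to PTX differed between immune cells and fibroblasts by edgeR's test of the difference itself for 26 of these genes. Those with the higher change in immune cells, in log2 units, were Taf1b (10.15), Zscan21 (8.65), Vrk1 (7.16), Eif3b (6.83), Orai1 (6.70), Tbc1d14 (6.49), Rasgef1b (6.05), Mtmr10 (5.97), Ninj1 (3.52) and Jun (1.58). Those with the lower one were Tinagl1 (-12.18), Ptk7 (-11.90), Ano1 (-11.82), Fscn1 (-11.81), Krtdap (-11.41), Dock6 (-11.34), Rgs5 (-11.30), Mylk (-10.27), Ptgis (-9.04), Cryab (-8.80), Phlda3 (-8.74), Osmr (-7.46), Rgs16 (-7.00), Tgfb3 (-6.83), Hspb8 (-6.62) and Tgfb1i1 (-5.44).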

How the results depend on the processing

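With TMM scaling and edgeR, 11 shared genes were higher and 118 lower in the difference, 1 list gene was higher and 8 lower, and 10 list genes rose and 8 fell in immune cells. The other settings are given in that order. RLE size factors gave 9 and 134, 0 and 7, 3 and 8, and plain CPM 6 and 129, 0 and 9, 4 and 12. Scaling within each population on shared genes alone gave 7 and 101, 1 and 7, 8 and 9, and no filter on low counts 7 and 106, 1 and 6, 9 and 8. DESeq2 gave 102 and 286, 6 (without Jun) and 12, 4 and 15; of its calls 10 and 117 were among the main 11 and 118, and it called 12 list genes in fibroblasts, where every other setting called 0. Limma's voom with quality weights gave 0 and 0, 0 and 0, 32 and 4, with 205 and 419 shared genes at an unadjusted p under 0.05. Adding vehicle females to the fit gave 39 and 153, 3 and 8, 17 and 9. Vehicle males and females together as controls gave 41 and 132, 2 and 7, 20 and 8, and vehicle females alone 1 and 23, 0 and 2, 2 and 2. With these last controls, differences turned over for Ccl7 to -0.68, Nfkbia to -0.33, Nr4a1 to -0.61, Tbk1 to -0.11, Tnfaip3 to -0.0179 and Ptgis to 0.18, and the immune response of Ptgis to 0.24; the cause was not tested. Taking resting levels from vehicle females gave 6 and 41, 1 and 2, 10 and 2, no limit on the resting ratio 11 and 225, 1 and 12, 11 and 16, and at least 20 CPM at rest 9 and 89, 1 and 7, 10 and 7.

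Same-numbered samples did not deviate together (correlations -0.03 to 0.0352), and the main fit did not pair them. At the spread of these libraries such values cannot settle whether the numbers pair the samples. A replicate block gave 4 and 82, 1 and 5, 5 and 9, and a replicate block within population 5 and 75, 2 and 8, 6 and 13.

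Further settings were chosen after seeing the data, as was plain CPM. At least 100 CPM at rest gave 1 and 13, 1 and 0, 9 and 0, and genes shared by males and by females 6 and 32, 1 and 1, 10 and 1. Without immune PTX 4 and fibroblast PTX 2, the libraries with the fewest genes, the counts were 13 and 111, 1 and 13, 7 and 13. Without immune vehicle 4, with the most fibroblast marker RNA, and immune PTX 4 they were 3 and 82, 0 and 8, 1 and 9. Leaving out 1 library at a time gave 2 (without immune vehicle 2) to 19 (without fibroblast PTX 4) and 75 (without fibroblast vehicle 3) to 123 shared genes, 0 to 3 and 5 to 10 list genes, and 3 to 11 and 8 to 13 in immune cells. Over the 57 named genes, 1339 recomputed differences kept their direction and side of the threshold, 294 lost the call, 14 gained it and 6 turned over. The 1339 include genes that did not pass in the main fit and stayed above the threshold. Only genes that passed could lose a call, so the 1339 do not measure how stable the calls were.

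The spread limits what could pass: the common biological coefficient of variation was 1.45. On simulated counts for this comparison, over 12055 genes, the test recovered 0% of 50 genes changed 2-fold, 0% of 50 changed 4-fold, 2% of 50 changed 8-fold and 18% of 50 changed 32-fold, and called 0 of 11855 unchanged genes.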
